A study of Homo sapiens with 45 samples.

Results

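Interferon-stimulated genes were followed through production of recombinant adeno-associated virus (rAAV) in human HEK293F cells, a suspension form of the embryonic kidney line HEK293. The set was a list of 37 symbols, and all 37 had a gene ID among the 60675 genes counted in each library. Of these, 32 passed the filter on low counts and were tested among 21242 genes. MX2, OAS1, OAS2, RSAD2 and XAF1 did not pass. The study asked how rAAV production affects gene expression, and compared lines that differ in yield. All cells were labelled HEK293F and wild type: 293F with no further term, AC1P as polyclonal, and AC1.112, AC1.203 and AC1.230 as clonal. The labels did not say which lines had high yield, nor which line gave rise to the clones, and each clonal line is 1 clone. Each line was sampled before transfection (0 h) and at 24 and 72 h. Transfection took place in fresh Expi293 medium with TransIT-VirusGEN reagent and 3 plasmids: pHelper, RepCap9 and a reporter between inverted terminal repeats. Every group had 3 libraries. A library of mock-transfected cells was not analysed here, so a difference in time joins the effects of the plasmids, the reagent, fresh medium and time in culture.

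Cells that detect foreign nucleic acid through sensors such as RIG-I, MDA5, cGAS and Toll-like receptors make interferons, which are secreted proteins. Interferons of type I and III bind receptors whose kinases JAK1 and TYK2 phosphorylate STAT proteins, STAT2 among them. With IRF9 these form the complex ISGF3, which binds a DNA element called the ISRE and turns on interferon-stimulated genes, many of which block steps of virus growth. HEK293 cells carry the adenoviral E1A gene, and E1A is known to oppose interferon signalling. Several of these genes are also transcribed at a basal level without interferon.

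The ISRE core was searched in promoters because it is what the members are known to share. The motif GAAANNGAAA, or TTTCNNTTTC on the other strand, was looked for from 250 bases before to 50 bases after the start of each gene in RefSeq (GRCh38.p14). Both strands were searched, and matches may overlap. Of the 29 members with a promoter entry, 19 held it (65.5%), against 3.65% of 27305 promoters and 2.83% of the 13398 promoters of tested genes. A match is a sequence description and does not show that ISGF3 bound there. The 6 windows of 50 bases below belong to members with a response in time (ISG15, BST2, IFI44L) or a difference between lines (IFI27, OAS3, PARP14) that is described later. Capitals mark 1 match per window, the one nearest the start of the gene, and each window is read 5′ to 3′ on the gene's own strand. All of these promoters but that of PARP14 held 2 matches. In the windows of ISG15, BST2 and IFI27 the other match is also present, wholly or partly in lower-case letters.
ISG15 (chr1:1013370-1013419, + strand): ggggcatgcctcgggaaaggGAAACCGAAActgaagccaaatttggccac
BST2 (chr19:17405725-17405774, - strand): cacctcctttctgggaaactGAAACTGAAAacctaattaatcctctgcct
IFI44L (chr1:78620355-78620404, + strand): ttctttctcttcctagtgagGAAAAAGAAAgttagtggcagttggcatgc
IFI27 (chr14:94110621-94110670, + strand): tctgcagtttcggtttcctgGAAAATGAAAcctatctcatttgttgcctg
OAS3 (chr12:112938442-112938491, + strand): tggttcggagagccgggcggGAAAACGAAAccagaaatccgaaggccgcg
PARP14 (chr3:122680790-122680839, + strand): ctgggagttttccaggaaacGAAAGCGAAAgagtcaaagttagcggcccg

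Library totals ranged from 24727028 to 59837051 counts, with a median of 39247411, and no pair of libraries was identical. Log-scale correlation between libraries of a group was 0.984 to 0.991. HEK293 markers were present in every library, but their summed level was 949 to 1449 CPM in 293F and 4193 to 7276 CPM in the AC1 lines. Most of that gap was the neurofilament genes NEFL and NEFM. The 8 haematopoietic markers summed to 1.98 to 7.28 CPM, with PTPRC, CD3E and LYZ at a median of 0. The 7 fibroblast markers, mainly collagen genes, summed to 15.3 to 156 CPM. CPM are counts scaled to 1000000 per library, after TMM correction of its total. In bulk RNA, fewer cells with a transcript and less RNA per cell cannot be told apart. Whether replicates of a group were separate cultures is not stated, so p-values measure the spread between these libraries, which may be technical.

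Many members lie in clusters of related genes. On GRCh38, IFIT1, IFIT2, IFIT3 and IFIT5 span chr10:89283694-89421001, OAS1, OAS2 and OAS3 span chr12:112906777-113011723, and IFITM1, IFITM2 and IFITM3 span chr11:307631-327537. PARP9, DTX3L and PARP14 span chr3:122527924-122730840, and SAMD9 and SAMD9L span chr7:93099513-93148369. Per kilobase of annotated exon, mean levels over all 45 libraries were highest for IFITM2 (10.3 CPM per kb), IFIT5 (7.94), HERC5 (7.16), IFI6 (7.16) and ISG15 (6.57). The 5 members left out by the filter had few counts over all libraries together: 89 for MX2, 43 for OAS1, 33 for RSAD2, 10 for OAS2 and 9 for XAF1. A count of 0 in a group of 3 libraries allows up to 3 counts, or 0.0219 to 0.0325 CPM depending on the group. OAS1 in AC1P was at 0 in all 9 libraries, so it was not detectable there at this depth.

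Members moved both ways at 24 h, and 17 of the 32 tested rose between 24 and 72 h. A gene is said to rise or fall at a Benjamini-Hochberg adjusted p under 0.05 over all 21242 genes, from edgeR's quasi-likelihood test, with no minimum fold change. Averaged over the 5 lines with equal weight, 9 of 32 tested members rose from 0 to 24 h and 14 fell, where 25.8% of all genes tested rose and 27.6% fell. From 0 to 72 h, 14 rose and 8 fell, against 30.3% and 29.5% of all genes. From 24 to 72 h, the 17 rises stood beside 1 fall, of IFIT5, against 29.3% and 28.7%. The median log2 fold change of the tested members was -0.037 at 24 h, 0.033 at 72 h and 0.33 from 24 to 72 h, beside -0.006, 0.028 and 0.028 over all genes. The count at 24 h leaned on AC1.112: with that line left out of the mean, 11 rose and 11 fell. At 72 h the split ran from 11 rises and 10 falls without 293F to 14 and 4 without AC1.112, beside 14 and 8 with all lines. Without 293F 2 members, not 1, fell from 24 to 72 h. Fibroblast markers changed as well in the mean over lines. Of 6 tested, 4 fell and 0 rose at 24 h (median -0.84), and 6 rose from 24 to 72 h (median 0.71). From 0 to 72 h, 3 of these markers rose and 2 fell. Their summed level was lower at 24 h than at 0 h in each of the 5 lines, while COL1A2 had 12 counts in all 45 libraries. Their part in the members' changes was not tested. The 3 comparisons share libraries and are not independent of each other.

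Members whose promoter held the ISRE motif went in both directions. At 24 h against 0 h, 6 of the 19 rose and 8 fell, where 25.8% of all genes tested rose and 27.6% fell. Of 7 tested members whose promoter entry lacked the motif, 1 rose and 4 fell. Of 6 tested members with no promoter entry, 2 rose and 2 fell. From 24 to 72 h, 10 of the 19 rose and 1 fell, where 29.3% and 28.7% of all genes did. Over the same interval 3 of the 7 without the motif rose and 0 fell, and 4 of the 6 with no entry rose and 0 fell. The difference between these groups of members was not tested.

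Of the signalling members, IRF9 and IRF7 rose and STAT2 dipped. STAT2, a subunit of ISGF3, fell by 0.33 on the log2 scale at 24 h (SE 0.031, adjusted p = 8.49e-15) and at 72 h differed from 0 h by 0.0087 ± 0.03 (adjusted p = 0.83). In AC1.203 it read 34.2, 42.5 and 38.8 CPM at 0 h, 21.1, 20.5 and 24.9 at 24 h and 34, 37.1 and 35.4 at 72 h, so the 24 h libraries lay below all others of that line. In AC1.230 it read 36, 33.4 and 36 CPM and then 36.1, 34.5 and 34.6, and the groups overlapped. Without AC1.203 the mean fall at 24 h was 0.22.

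IRF7, a factor that amplifies interferon production, rose by 0.58 ± 0.064 at 72 h in the mean over lines (adjusted p = 4.22e-12). In 293F it read 5.73, 6.46 and 5.46 CPM at 0 h, 6.76, 6.23 and 6.72 at 24 h and 12.1, 10.8 and 13.2 at 72 h. The AC1.230 libraries read 4.96, 4.99 and 3.95 CPM at 0 h and 6.8, 8.24 and 9.53 at 72 h. Both lines had every 72 h library above every 0 h library, with log2 fold changes of 1.03 ± 0.13 (adjusted p = 2.12e-09) and 0.81 ± 0.14 (adjusted p = 2.01e-06). In AC1.203 the levels were 2.79 ± 0.263 CPM at 0 h and 3.37 ± 0.64 at 72 h (mean ± SD, n = 3), and the difference did not pass the test (adjusted p = 0.199).

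IRF9, the DNA-binding subunit of ISGF3, was counted rarely, with 85 counts in the 15 libraries at 0 h, 177 at 24 h and 403 at 72 h. Its mean log2 fold change was 1.21 ± 0.34 at 24 h (adjusted p = 0.0022) and 2.23 ± 0.32 at 72 h (adjusted p = 9.75e-09). Without AC1.112, which had 1, 1 and 0 counts at 0 h, the 24 h value was 0.8. By line the 72 h change ran from 1.53 to 3.8, and 3 lines passed the test. Of these, the call in AC1.230 was lost without any 1 of 3 libraries. In 293F the 72 h libraries read 1.61, 1.65 and 1.42 CPM against 0.175, 0.374 and 0.386 at 0 h, with no overlap. Of its annotated exon bases, 48.4% overlap another gene model on the same strand, so its counts depend on how shared reads were assigned, which is not given in the sources used here.

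ISG15 encodes a ubiquitin-like protein that is attached to other proteins, HERC5 is the main ligase for it, and USP18 removes it and also dampens the interferon receptor. ISG15 rose at 72 h in all 5 lines. Its mean log2 fold change was 0.24 ± 0.068 at 24 h (adjusted p = 0.00237) and 0.91 ± 0.066 at 72 h (adjusted p = 4.87e-19). The 293F libraries read 4.53, 2.99 and 4.01 CPM at 0 h, 3.85, 5.37 and 4.4 at 24 h and 8.73, 11.8 and 9.58 at 72 h. In AC1P they read 5.46, 6.39 and 5.56, then 5.72, 6.89 and 5.84, then 8.72, 8.77 and 9.04 CPM. Each line had its lowest 72 h library above its highest 0 h library.

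The 3 clones moved likewise for ISG15. AC1.112 read 4.56, 5.58 and 4.31 CPM at 0 h and 7.44, 7.53 and 7.87 at 72 h. AC1.203 read 5, 4.32 and 2.96 and 8.02, 7.03 and 8.69 CPM, and AC1.230 read 4.15, 4.67 and 4.45 and 8.06, 9.08 and 8.12 CPM. The 72 h log2 fold changes by line ran from 0.6 in AC1P to 1.39 in 293F.

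The other members of the ISG15 pathway changed little in time. USP18 differed by 0.013 ± 0.057 at 24 h (adjusted p = 0.879) and by -0.0035 ± 0.057 at 72 h (adjusted p = 0.977), and it passed the test in no line at either time. HERC5 rose by 0.17 ± 0.029 at 72 h (adjusted p = 4.05e-07), and in 293F read 26.1, 23 and 22.8 CPM at 0 h and 31.6, 28.7 and 27.7 at 72 h, which do not overlap. HERC6, a relative of HERC5, fell in 293F from 12.6, 12.2 and 13.6 CPM at 0 h to 10.01, 8.87 and 8.67 at 24 h and 8.97, 9.64 and 10.2 at 72 h, with no overlap between 0 h and later libraries. Its mean fall at 24 h (-0.16, adjusted p = 0.00947) did not hold without 293F (-0.08, adjusted p = 0.292) or without AC1.112 (-0.093, adjusted p = 0.184).

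Membrane factors that block virus entry or release fell at 24 h. BST2, or tetherin, holds budding virions at the cell surface. It read 4.31, 5.17 and 3.73 CPM in 293F at 0 h, 1.07, 1.8 and 1.27 at 24 h and 6.33, 6.27 and 6.54 at 72 h. In AC1.203 it read 5.03, 4.73 and 5.73, then 1.73, 1.51 and 1.28, then 7.95, 6.19 and 6.43 CPM. In both lines the 24 h libraries lay below all others, and the 72 h libraries lay above all those at 0 h.

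In the remaining lines BST2 did not pass its 0 h range by 72 h. AC1.230, the line with the most BST2 at 0 h, read 11.4, 8.73 and 10.6 CPM, then 5.11, 6.4 and 6.47, then 5.47, 6.62 and 5.33. AC1.112 read 4.18, 3.04 and 3.2, 1.08, 1.46 and 1.83 and 2.38, 2.06 and 2.52 CPM in the same order. At the same times AC1P read 4.09, 3.29 and 4, 2.13, 2.62 and 2.66 and 3.88, 2.77 and 2.81 CPM. In these 3 lines all 24 h libraries lay below all 0 h libraries.

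The mean log2 fold change of BST2 was -1.23 ± 0.081 at 24 h (adjusted p = 7.4e-21) and 1.08 ± 0.081 from 24 to 72 h (adjusted p = 2.77e-18). By line the 24 h change ran from -1.79 in AC1.203 to -0.62 in AC1P, and it differed among lines (adjusted p = 7.01e-05). The AC1P fall (adjusted p = 0.00748) did not pass the test without AC1P replicate 1 at 24 h (-0.52, adjusted p = 0.0679). Responses at 72 h differed among lines as well (adjusted p = 3.1e-06), with 0.53 in 293F and -0.82 in AC1.230. The summed fibroblast markers were also lower at 24 h, at 27.1 to 29.1 CPM against 43.2 to 46.6 CPM at 0 h in 293F and 29.99 to 32.9 against 88.7 to 96.9 CPM in AC1.203; their part in the BST2 result was not tested.

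IFITM1, IFITM2 and IFITM3 encode small membrane proteins that hinder fusion of entering viruses. All 3 fell at 24 h in the mean over lines, by 0.71, 0.57 and 0.65 on the log2 scale (SE 0.06, 0.038 and 0.061), with adjusted p-values of 2.87e-16, 7.88e-21 and 2.62e-14. IFITM2 in 293F read 22.2, 22.8 and 21 CPM at 0 h, 11, 9.68 and 11.6 at 24 h and 21.8, 23.4 and 23.4 at 72 h. In AC1.112 it read 17.4, 17.3 and 16.1, then 11.2, 10.1 and 10.04, then 10.9, 10.3 and 11 CPM. The 24 h libraries were below those at 0 h in both lines, and by 72 h the 293F libraries overlapped those at 0 h while the AC1.112 libraries did not.

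IFITM1 and IFITM3 gave courses in 293F like that of IFITM2. In 293F IFITM1 read 5.21, 4.24 and 5.69 CPM at 0 h, 2.28, 2.48 and 2.22 at 24 h and 5.5, 4.1 and 5.57 at 72 h. IFITM3 read 7.04, 8.29 and 6.82, then 3.67, 3.7 and 4.23, then 7.99, 9.04 and 9.72 CPM. The AC1 lines differed at 72 h: IFITM1 libraries lay below those at 0 h in all 4, and each passed the test. The call in AC1.203 was lost without 72 h replicate 3 (adjusted p = 0.19), and that in AC1.230 without 0 h replicate 1 (adjusted p = 0.123). IFITM3 libraries at 72 h lay below those at 0 h in AC1P, AC1.112 and AC1.230, and overlapped in AC1.203. At 24 h IFITM1 in AC1P overlapped its 0 h libraries. The 24 h change differed among lines for IFITM1 (adjusted p = 6.68e-06) and IFITM2 (adjusted p = 1.15e-07). The smallest IFITM2 change was in AC1.230, at 12.3 ± 0.979 CPM at 0 h and 10.8 ± 1.47 at 24 h. The 3 genes are related in sequence, and 32.5% of IFITM1 exon bases overlap IFITM2 on the same strand. How reads were divided among the 3 is therefore uncertain, although IFITM3 has no such overlap on its strand. On the opposite strand another gene model overlaps 21.3% of IFITM3 exon bases, and the strand setting of the counting is not given. Summed fibroblast markers also went down in AC1.112, from 36.1 to 37.4 CPM at 0 h to 15.3 to 18.8 CPM at 24 h, and their part in the IFITM changes was not tested.

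The IFIT genes encode proteins that bind viral RNA, and their responses did not go together. IFIT2 rose in 293F at both times: it read 0.476, 0.594 and 0.618 CPM at 0 h, 2.71, 2.74 and 2.86 at 24 h and 2.42, 2.83 and 1.78 at 72 h. The log2 fold changes there were 2.29 ± 0.34 (adjusted p = 4.81e-08) and 2.06 ± 0.34 (adjusted p = 7.09e-07). In AC1P it read 0.581, 0.985 and 1.33 CPM and then 0.47, 0.528 and 1.33, which overlap. No AC1 line passed the test at 24 h, where values ran from -0.78 in AC1.203 to -0.069 in AC1.112, and the difference among lines passed (adjusted p = 4.8e-06). The mean rise at 72 h (0.72, adjusted p = 0.000122) was 0.39 without 293F (adjusted p = 0.0728). The 72 h libraries also lay above those at 0 h in AC1.112 (0.917, 0.764 and 0.761 against 0.2685, 0.529 and 0.616 CPM). The same held in AC1.230 (1.19, 1.29 and 1.48 against 0.725, 0.844 and 0.777 CPM), but neither line passed the test. AC1P and AC1.203 overlapped.

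IFIT1 fell at 24 h by 0.64 in the mean over lines (SE 0.094, adjusted p = 2.4e-08). AC1.203 read 5.36, 3.51 and 3.83 CPM at 0 h, 1.73, 2.38 and 2.15 at 24 h and 4.7, 3.07 and 3.4 at 72 h. In 293F the values were 3.43, 2.9 and 2.6 CPM at 0 h and 3.65, 3.39 and 3.86 at 24 h, where all but 1 of the 24 h libraries lay above all those at 0 h. The difference among lines at 24 h passed the test (adjusted p = 0.00034).

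IFIT5 rose in 293F at 24 h, from 20.8, 22.3 and 22.9 to 31.5, 30.9 and 31.7 CPM, and read 19.9, 20.2 and 21.2 CPM at 72 h. Its log2 fold change at 24 h was 0.51 ± 0.063 (adjusted p = 3.79e-10). In AC1P it fell, from 37.8, 37.3 and 37.4 to 30.9, 28 and 31.3 CPM (-0.32, adjusted p = 7.47e-05). These opposite responses were part of a difference among lines at 24 h (adjusted p = 2.09e-10). IFIT3 read 2.28, 1.85 and 1.21 CPM in 293F at 0 h, 2.22, 3.08 and 2.49 at 24 h and 2.79, 3.07 and 2.65 at 72 h. It rose by 0.41 ± 0.13 at 72 h in the mean (adjusted p = 0.00399), while its call at 24 h (0.3, adjusted p = 0.0418) was lost when any 1 of 16 libraries was left out, at most with AC1.203 0 h replicate 1 out (adjusted p = 0.155).

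OAS enzymes make 2′-5′ oligoadenylate, which activates RNase L, and Mx GTPases trap viral nucleocapsids. OAS3 rose in AC1.203, where it read 0.888, 0.85 and 1.09 CPM at 0 h, 4, 2.8 and 3.39 at 24 h and 1.71, 1.96 and 2.07 at 72 h. Its log2 fold change there was 1.83 ± 0.21 at 24 h (adjusted p = 3.31e-11). AC1.230 read 2.04, 2 and 2.11 CPM at 0 h, 3.17, 2.74 and 2.91 at 24 h and 4.03, 3.53 and 3.135 at 72 h. Its later libraries all lay above those at 0 h. The 24 h rise in AC1.230 (adjusted p = 0.0238) was lost without any 1 of 3 libraries, at most without 24 h replicate 1 (adjusted p = 0.103). In 293F OAS3 read 8.34, 9.04 and 9.93 CPM and then 9.16, 7.9 and 8.06, with overlap. Responses at 24 h differed among lines (adjusted p = 1.8e-07), and without AC1.203 the mean rise (0.53) was 0.21 (adjusted p = 0.0857).

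OASL, an OAS relative without the enzyme activity, was close to 0 except in 293F at 24 h. Its counts in 293F were 3, 2 and 3 at 0 h, 40, 40 and 33 at 24 h and 16, 6 and 2 at 72 h. The sum of 113 against 8 counts is a ratio of 14.2 after scaling, with a 95% exact interval of 6.95 to 33.6 that covers counting error only. No AC1 library at any time had more than 5 OASL counts, and AC1P had none at 0 h. The fit gave adjusted p = 0.000298 in 293F, and the difference of the response among lines did not pass the test (adjusted p = 0.236). The OASL calls in the mean over lines at 24 and 72 h (adjusted p = 0.0306 and 0.0338) were set by groups near 0 and were lost on leaving out any 1 of 6 and 7 libraries, at most without AC1.230 24 h replicate 3 (adjusted p = 1) and AC1.112 72 h replicate 3 (adjusted p = 1).

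MX1 rose by 0.89 ± 0.17 at 72 h in the mean over lines (adjusted p = 8.48e-06). In AC1.203 it read 0.789, 0.369 and 0.317 CPM at 0 h and 1.16, 1.7 and 1.67 at 72 h, with no overlap. In AC1P it read 0.792, 1.13 and 0.813 and 0.99, 1 and 0.99 CPM, which overlap. MX2, the nuclear-pore member of the pair, had at most 9 counts in a library. OAS1 and OAS2 had at most 13 and 4.

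Of the nucleotide and RNA enzymes, ISG20, a 3′ exonuclease, rose. Its mean log2 fold change was 0.48 ± 0.14 at 24 h (adjusted p = 0.00303) and 1.05 ± 0.14 at 72 h (adjusted p = 8.35e-10). It read 1.78, 1.3 and 1.52 CPM in 293F at 0 h, 2.42, 2.45 and 2.61 at 24 h and 3.73, 3.02 and 3.79 at 72 h. In AC1P it read 0.792, 0.644 and 0.0651, then 1.29, 0.88 and 0.936, then 2.27, 1.77 and 0.99 CPM. The lowest of all these, AC1P replicate 3 at 0 h, stood well below the other libraries of its group.

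SAMD9 and its neighbour SAMD9L restrict poxviruses and slow translation. SAMD9L fell by 0.43 at 24 h (adjusted p = 0.000883; adjusted p = 0.0508 without AC1.112) and rose by 0.76 ± 0.11 from 24 to 72 h (adjusted p = 1.38e-08). SAMD9L fell most in AC1.112, from 0.649, 1.53 and 1.31 CPM at 0 h to 0.468, 0.728 and 0.437 at 24 h, and read 1.44, 1.87 and 1.09 at 72 h. SAMD9 rose in 293F at 24 h, from 6.26, 6.11 and 6.69 to 9.83, 8.66 and 8.99 CPM, with no overlap (0.53 ± 0.10, adjusted p = 1.45e-05). In AC1P it read 16.1, 16.7 and 15.4 CPM and then 14, 16.1 and 14.9, which overlap, and responses at 24 h differed among lines (adjusted p = 2.35e-05). CMPK2, a mitochondrial nucleotide kinase next to RSAD2, had 231 counts in all and passed no test in time. RSAD2, or viperin, was not tested.

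DTX3L and PARP9 encode a ubiquitin ligase and a catalytically weak ADP-ribosyltransferase that act as a pair in the DNA damage and interferon responses. DTX3L rose at 24 h in all 5 lines. It read 23.9, 24.2 and 23.4 CPM in 293F at 0 h, 36.5, 41.9 and 34.5 at 24 h and 43.5, 42.1 and 43.5 at 72 h. AC1.230 read 31.3, 33 and 32, then 41.6, 42.1 and 40.4, then 38.7, 36.8 and 37.3 CPM. No 24 h library of either line overlapped those at 0 h, and the mean log2 fold change was 0.45 ± 0.031 (adjusted p = 3.99e-20).

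PARP9, which shares a divergent start with DTX3L, did not pass the test in the mean over lines (-0.088 ± 0.041, adjusted p = 0.0641). Their exons overlap on opposite strands over 3.7% of DTX3L, and the strand setting of the counting is not given in the sources used here. In 293F PARP9 was at 21.1 ± 0.952 CPM at 0 h and 22.6 ± 2.21 at 24 h (n = 3), and the libraries overlapped. PARP14, a larger relative on the same stretch of chromosome, read 8.39 ± 0.752 CPM in 293F at 0 h, 7.24 ± 0.651 at 24 h and 10.2 ± 0.499 at 72 h (n = 3) and passed no test in time.

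TRIM22, a RING-finger protein that restricts several viruses, fell and then rose in 3 of the 5 lines. It read 3, 3.25 and 3.86 CPM in 293F at 0 h, 0.784, 0.574 and 0.464 at 24 h and 4.03, 3.93 and 3.73 at 72 h. AC1.203 read 1.18, 1.4 and 1.04, then 0.22, 0.283 and 0.369, then 1.53, 1.44 and 1.2 CPM. AC1.112 read 2.04, 2.12 and 2.16, then 0.994, 0.728 and 1.28, then 3.75, 2.89 and 3.5 CPM. In all 3 lines the 24 h libraries lay below every other library of the line.

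AC1P and AC1.230 showed no such dip in TRIM22. AC1P read 0.95, 0.877 and 0.618 CPM at 0 h, 0.94, 0.579 and 0.862 at 24 h and 1.12, 0.844 and 1.19 at 72 h. AC1.230 read 2.33, 2.06 and 1.49, then 1.77, 2.63 and 2.1, then 4.82, 5.26 and 4.42 CPM, with every 72 h library above the rest. The 24 h log2 fold changes were -2.46 ± 0.24 in 293F, -2.0 ± 0.30 in AC1.203 and -1.06 ± 0.24 in AC1.112, against -0.048 ± 0.26 in AC1P and 0.12 ± 0.21 in AC1.230. The difference among lines passed the test (adjusted p = 4.71e-10). Summed fibroblast markers were lower at 24 h than at 0 h in every line. In AC1P they were 70.2 to 76.9 CPM at 0 h and 51.1 to 53.6 CPM at 24 h. In AC1.230 they were 142 to 156 CPM at 0 h and 91.3 to 105 CPM at 24 h. Their part in the TRIM22 changes was not tested. In the mean over lines TRIM22 fell by 1.09 at 24 h (adjusted p = 5.46e-13) and rose by 1.64 ± 0.11 from 24 to 72 h (adjusted p = 1.5e-20).

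IFI6, a mitochondrial and endoplasmic reticulum protein that limits cell death and flavivirus growth, fell at 24 h. It read 14.4, 13.7 and 11 CPM in AC1.203 at 0 h, 5.98, 5.25 and 5.43 at 24 h and 10.4, 11 and 8.08 at 72 h. In 293F it read 8.31, 10.7 and 9.52, then 6.43, 7.41 and 6.16, then 10.6, 10.5 and 12 CPM. The 24 h libraries lay below all others in both lines, and the mean log2 fold change was -0.74 ± 0.064 (adjusted p = 7.31e-16). Responses differed among lines at 24 h (adjusted p = 0.000468) and 72 h (adjusted p = 0.00191).

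IFI27, a small protein of the same family, moved in opposite directions at 72 h. In 293F it read 1.03, 1.96 and 1.7 CPM at 0 h and 3.4, 3.05 and 3.01 at 72 h, and it rose by 1.01 ± 0.18 (adjusted p = 2.91e-06). In AC1P it read 6.2, 6.27 and 6.7 and 4.2, 4.02 and 3.96 CPM, and in AC1.230 6.94, 6.78 and 6.81 and 4.49, 4.91 and 4.34 CPM. It fell in both, by 0.65 (adjusted p = 0.00122) and 0.58 (adjusted p = 0.00147), and the difference among lines passed the test (adjusted p = 2.42e-07). The 0 h level in 293F was the lowest of the 5 lines, and no 72 h library of 293F reached the 0 h level of AC1P or AC1.230.

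IFI44L, which interacts with FKBP5 and dampens the interferon response, fell by 0.77 at 24 h (SE 0.12, adjusted p = 6.08e-08) and rose by 1.13 ± 0.11 from 24 to 72 h (adjusted p = 1.49e-13). AC1.203 read 3.42, 4.58 and 4.87 CPM at 0 h, 1.26, 1.55 and 1.13 at 24 h and 4.28, 3.86 and 4.54 at 72 h. The summed fibroblast markers in AC1.203 were 88.7 to 96.9 CPM at 0 h, 29.99 to 32.9 CPM at 24 h and 70.3 to 73.7 CPM at 72 h, and their part in the IFI44L changes was not tested. For IFI44L, AC1.230 read 1.9, 2.03 and 1.96, then 1.62, 2.43 and 1.83, then 1.8, 3.03 and 2.64 CPM, with overlap between all 3 times. In 293F it read 0.676, 0.572 and 0.437 CPM at 0 h and 1.47, 1.7 and 1.39 at 72 h, and it rose there by 1.44 ± 0.27 (adjusted p = 1.31e-05). The mean over lines at 72 h was 0.36 with 293F and 0.085 without it (adjusted p = 0.55). The neighbouring IFI44 had 378 counts in all and passed no test in time.

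IFI35, a partner of the factor NMI, fell by 0.31 at 24 h (SE 0.083, adjusted p = 0.00103), and in 293F read 5.63, 7.14 and 5.69 CPM at 0 h, 5.17, 4.25 and 3.54 at 24 h and 6.29, 6.14 and 5.87 at 72 h. EPSTI1, an epithelial-stromal interaction gene, passed the test at 24 h in the mean over lines (adjusted p = 0.00229). That call rested on AC1.112, with 4, 0 and 5 counts at 0 h and 0 in all 3 libraries at 24 h, and without that line the value was -0.44 (adjusted p = 0.137). XAF1, a pro-apoptotic gene, was not tested, and 38.3% of its exon bases overlap an antisense gene.

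Counts of calls differed from line to line. In 293F, 6 of 32 members rose and 9 fell at 24 h, against 19.8% and 22.1% of all genes, and 12 rose and 1, HERC6, fell at 72 h, against 18.3% and 21.9%. In AC1P, 2 rose and 8 fell at 24 h (9.85% and 9.5% of all genes), and 4 rose and 7 fell at 72 h (12.7% and 13.2%). Without AC1P replicate 1 at 24 h, the AC1P counts at 24 h dropped to 1 and 5, and without AC1P replicate 3 at 0 h, 1 rose at 24 h and 2 at 72 h. In AC1.112, 2 rose and 15 fell at 24 h (10.8% and 12.6%), and 5 rose and 6 fell at 72 h (14.2% and 18.4%). In AC1.203 the counts were 4 and 10 at 24 h (21% and 20.8%) and 6 and 3 at 72 h (13.9% and 17%). In AC1.230 they were 3 and 4 at 24 h (12.1% and 14.7%) and 7 and 7 at 72 h (17% and 22.1%). The rises in AC1.112 at 24 h numbered 1 without any 1 of 5 libraries (replicates 1, 2 and 3 at 0 h and replicates 2 and 3 at 24 h). The rises in AC1.203 at 24 h numbered 2 without replicate 3 at 0 h or replicate 3 at 24 h, and its falls at 72 h numbered 1 without replicate 1 at 0 h or replicate 3 at 72 h. The AC1.112 count of falls at 24 h was the highest and that of AC1.230 the lowest; the difference between those counts was not tested. Tested gene by gene, the 24 h response differed among lines for 16 of 32 members, where 43.9% of all genes differed, and the 72 h response for 13, where 23.2% did.

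Before transfection most members differed among the lines. Across the 5 lines at 0 h, 30 of 32 tested members differed, where 80.8% of all genes did; IFITM3 and OASL did not pass. Compared with 293F, AC1P had 10 members higher and 16 lower, beside 30% and 32.4% of all genes. AC1.112 had 8 higher and 13 lower (30.4% and 32.2%). AC1.203 had 8 and 12 (28.2% and 29.6%), and AC1.230 had 12 and 14 (30.5% and 31.6%). These 4 comparisons share the 3 libraries of 293F, so agreement among them is not independent. HEK293 markers also differed between 293F and the AC1 lines, and their part in the results below was not tested.

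**Figure D1:**
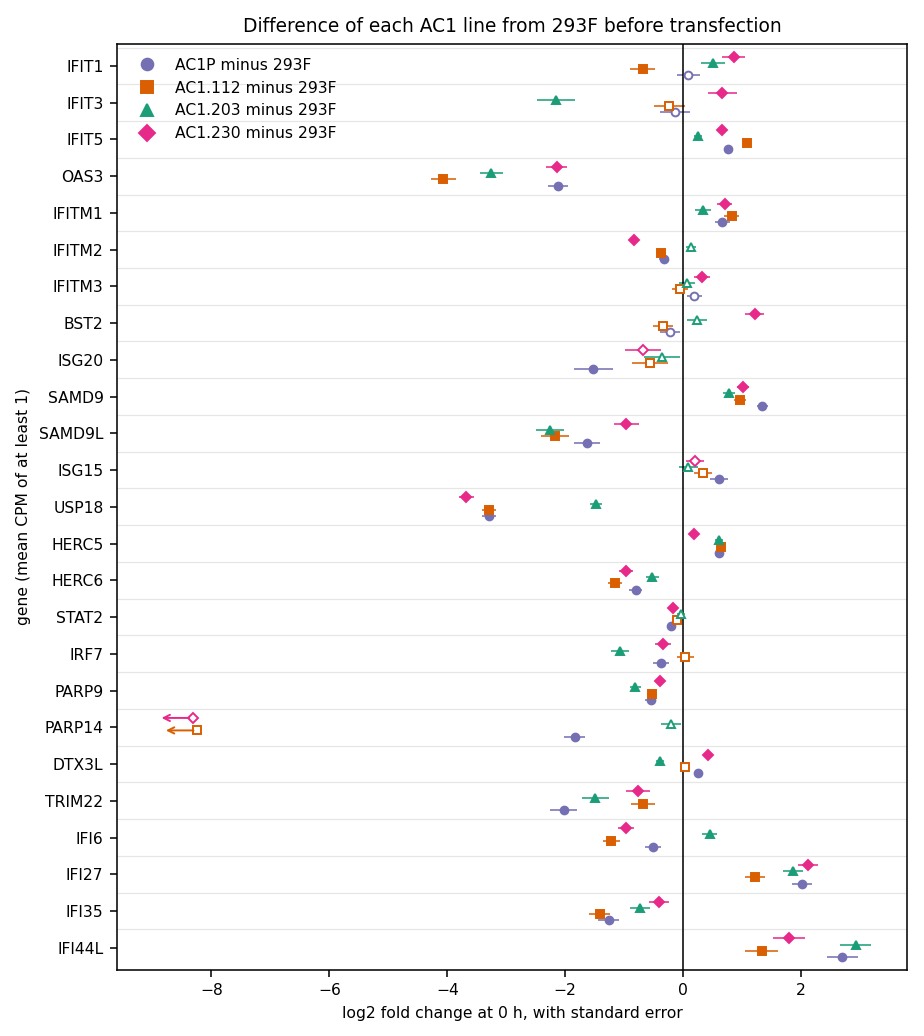
Difference of each AC1 line from 293F at 0 h for tested members with a mean of at least 1 CPM (rows), as log2 fold change with standard error; filled symbols have an adjusted p under 0.05, and open symbols with an arrow are upper bounds from a count of 0. USP18, OAS3 and SAMD9L lie left of 0 in all 4 AC1 lines, IFI27, IFI44L and SAMD9 lie right of 0 in all 4, and PARP14 is at a bound in AC1.112 and AC1.230.

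USP18, the brake on interferon signalling, was lower in all 4 AC1 lines. It read 35.4, 32 and 32.6 CPM in 293F at 0 h and 3.04, 3.63 and 3.42 in AC1P. The clones read 2.8, 3.3 and 4.27 CPM (AC1.112), 12.1, 13 and 10.9 (AC1.203) and 2.81, 3.09 and 1.8 (AC1.230). No AC1 library at any time came near the 293F range, and AC1.203 lay between 293F and the other lines. The log2 fold changes from 293F were -3.3 ± 0.12 in AC1P, -3.3 ± 0.12 in AC1.112, -1.48 ± 0.11 in AC1.203 and -3.68 ± 0.12 in AC1.230, with adjusted p-values from 3.83e-36 to 1.8e-19.

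PARP14, an ADP-ribosyltransferase with macrodomains, was not detectable at 0 h in AC1.112 and AC1.230. Each of these lines had 1 PARP14 count in 9 libraries. In 293F the 0 h libraries held 328, 352 and 358 counts, in AC1P 77, 134 and 80 and in AC1.203 188, 209 and 273. Against a floor of 3 counts over the group, PARP14 at 0 h was at least 302-fold lower in AC1.112 and at least 318-fold lower in AC1.230 than in 293F. AC1P was lower by 1.84 on the log2 scale (adjusted p = 2.14e-13), with 2.34 ± 0.289 CPM, and AC1.203 did not pass (-0.21 ± 0.17, adjusted p = 0.293). Its neighbours on chromosome 3 were present in both clones: DTX3L at 24.4 ± 0.934 and 32.1 ± 0.827 CPM and PARP9 at 14.6 ± 1.17 and 16.1 ± 2.12 CPM at 0 h (n = 3 each).

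OAS3 was lower in every AC1 line. It read 8.34, 9.04 and 9.93 CPM in 293F, 1.93, 2.24 and 2.08 in AC1P and 2.04, 2 and 2.11 in AC1.230. AC1.112 read 0.694, 0.423 and 0.462 CPM and AC1.203 read 0.888, 0.85 and 1.09. No AC1 library overlapped 293F, and the log2 differences ran from -2.12 in AC1P to -4.07 in AC1.112 (adjusted p-values from 1.69e-26 to 1.99e-17). After its rise at 24 h, AC1.203 remained below every 293F library.

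SAMD9 and SAMD9L, neighbours on chromosome 7, differed in opposite directions. SAMD9L read 4.31, 6.04 and 5.07 CPM in 293F against 1.53, 1.9 and 1.5 in AC1P and 0.921, 1.03 and 1.24 in AC1.203. SAMD9 read 6.26, 6.11 and 6.69 CPM in 293F against 16.1, 16.7 and 15.4 in AC1P and 9.9, 11.1 and 11.5 in AC1.203. For SAMD9L the log2 differences from 293F were -1.63 in AC1P, -2.17 in AC1.112, -2.26 in AC1.203 and -0.96 in AC1.230 (SE 0.21 to 0.24). For SAMD9 they were 1.34, 0.96, 0.77 and 1.02 in the same order (SE 0.099 to 0.10). All 8 passed the test.

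IFI27 and IFI44L were higher in every AC1 line. IFI27 read 1.03, 1.96 and 1.7 CPM in 293F and 4.96, 6.35 and 5.87 in AC1.203, with AC1P, AC1.112 and AC1.230 also above it. Its log2 differences were 2.02 ± 0.17, 1.22 ± 0.18, 1.87 ± 0.17 and 2.12 ± 0.17 in AC1P, AC1.112, AC1.203 and AC1.230. IFI44L read 0.676, 0.572 and 0.437 CPM in 293F, 4.2, 3.47 and 3.35 in AC1P and 1.01, 1.48 and 1.89 in AC1.112. Its differences were 2.7 ± 0.26, 1.33 ± 0.28, 2.92 ± 0.26 and 1.8 ± 0.27 in the same order. No AC1 library overlapped the 293F libraries for either gene at 0 h.

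TRIM22 was lower in the AC1 lines at 0 h, by 2.02 in AC1P, 0.68 in AC1.112, 1.49 in AC1.203 and 0.77 in AC1.230 on the log2 scale. HERC6 was lower in all 4 as well, with 12.8 ± 0.755 CPM in 293F and 5.76 ± 0.706 in AC1.112, the largest gap (-1.16, adjusted p = 2.38e-13). PARP9 was lower by 0.39 to 0.81. IFIT5 was higher in all 4, from 0.25 in AC1.203 to 1.08 in AC1.112, where it read 45.6, 45.6 and 48.2 CPM against 20.8, 22.3 and 22.9 in 293F. EPSTI1 held 196 counts in 293F at 0 h, against 27 in AC1P, 9 in AC1.112, 32 in AC1.203 and 78 in AC1.230.

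Other members stood apart from 293F in fewer lines, and clones were not tested against each other. IFIT3 was lower in AC1.203, at 0.0986, 0.332 and 0.72 CPM against 2.28, 1.85 and 1.21 in 293F (-2.16 ± 0.33, adjusted p = 4.94e-08). IRF7 was lower in AC1.203 by 1.08 (adjusted p = 8.37e-09). BST2 was higher in AC1.230 (1.22 ± 0.16, adjusted p = 7.22e-10), and did not pass in AC1P (-0.23), AC1.112 (-0.33) or AC1.203 (0.23). IFI6 was higher in AC1.203 (0.45, adjusted p = 0.00195) and lower in AC1P, AC1.112 and AC1.230 (-0.51, -1.22 and -0.96). IFIT3 in AC1.230 (0.67) passed, but not without 293F replicate 3 at 0 h (adjusted p = 0.147). IRF7 in AC1P (-0.37) and AC1.230 (-0.34) passed, but not without 293F replicate 2 (adjusted p = 0.14 and 0.144). IFITM3 levels at 0 h lay between 6.82 and 9.61 CPM over all 15 libraries, and the F test among lines gave adjusted p = 0.0541.

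Smaller gaps at 0 h were seen in members of other roles. IFI35 was lower by 1.26 in AC1P, 1.42 in AC1.112 and 0.73 in AC1.203. HERC5, the ISG15 ligase, was higher in the same 3 lines, by 0.61 ± 0.065, 0.64 ± 0.065 and 0.61 ± 0.065. In AC1.112 it read 38.4, 35.9 and 37.5 CPM against 26.1, 23 and 22.8 in 293F, with no overlap. IFITM1 was higher in AC1P, AC1.112 and AC1.230 (0.66, 0.82 and 0.7). In AC1P, ISG15 was higher by 0.61 ± 0.15 (adjusted p = 0.000364) and ISG20 was lower (-1.53 ± 0.33, adjusted p = 4.86e-05). The gaps of IFI35 (-0.41) and HERC5 (0.18) in AC1.230 and of IFITM1 in AC1.203 (0.33) also passed, but each was lost without 293F replicate 2 at 0 h (adjusted p = 0.187, 0.0821 and 0.197).

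Transcripts of the interferons themselves were at or near 0. Of 21 interferon genes listed, none passed the filter on low counts, and 14 had no count in any of the 45 libraries. IFNB1, the first interferon made in many cells, had 7 counts, all in 293F at 24 h (0.0598 ± 0.0659 CPM, n = 3). IFNE had the most, with 53 counts spread over the times. Both were named after their values were seen.

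All 6 interferon receptor subunits listed were tested. Of these, 3 rose and 2 fell at 24 h, where 25.8% and 27.6% of all genes did, and 1 rose and 4 fell at 72 h, where 30.3% and 29.5% did, with median log2 fold changes of 0.047 and -0.13. IFNLR1, the specific chain of the interferon lambda receptor, rose by 0.44 ± 0.044 at 24 h (adjusted p = 4.13e-13). Its partner IL10RB fell by 0.34 at 72 h (adjusted p = 8.02e-14). The interferon gamma receptor chain IFNGR1 fell by 0.32 from 24 to 72 h (adjusted p = 5.09e-15), and IFNGR2 was 57.9 ± 3.45 CPM in 293F and 112 ± 6.06 in AC1.112 at 0 h.

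Of 11 genes of the JAK-STAT relay and its inhibitors, 3 rose and 1 fell at 24 h (25.8% and 27.6% of all genes), and 3 rose and 2 fell at 72 h (30.3% and 29.5%). The medians were 0.008 and -0.015. The phosphatase gene PTPN2 rose by 0.35 ± 0.03 at 24 h (adjusted p = 8.01e-16) and fell by 0.38 from 24 to 72 h. SOCS1, a feedback inhibitor of JAK kinases, rose by 0.37 ± 0.12 at 72 h (adjusted p = 0.00803), and SOCS3 by 0.26 ± 0.10 from 24 to 72 h (adjusted p = 0.0221). STAT3 rose by 0.23 ± 0.025 at 72 h.

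Of 14 tested nucleic acid sensors and adaptors among 20 listed, 3 rose and 2 fell at 24 h (25.8% and 27.6% of all genes), and 5 rose and 2 fell at 72 h (30.3% and 29.5%). The medians were 0.0023 and 0.072. IFIH1, which encodes the RNA sensor MDA5, rose by 0.79 ± 0.15 at 72 h (adjusted p = 7.31e-06). At 0 h it read 10.8 ± 1.28 CPM in 293F and 0.128 ± 0.0737 in AC1.112, and it was lower than 293F in all 4 AC1 lines, from -3.0 to -6.45. STING1, the adaptor of the DNA sensor cGAS, fell by 0.39 at 24 h (adjusted p = 2.54e-14). MYD88, the adaptor of most Toll-like receptors, fell by 0.2 at 72 h (adjusted p = 0.0116).

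Of 9 interferon regulatory factors and partners outside the member list, 3 rose and 2 fell at 24 h (25.8% and 27.6% of all genes), and 5 rose and 1 fell at 72 h (30.3% and 29.5%), with medians of -0.0001 and 0.3. IRF1 rose by 0.42 ± 0.055 at 24 h and 0.55 ± 0.054 at 72 h (adjusted p = 1.02e-13), and in 293F went from 4.49 ± 0.315 to 8.27 ± 0.944 CPM. IRF2 rose by 0.5 ± 0.052 at 24 h (adjusted p = 9.45e-13), and the corepressor gene IRF2BP2 by 0.42 ± 0.02.

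Of a further 61 interferon-stimulated genes, 57 were tested. At 24 h 10 rose and 15 fell (25.8% and 27.6% of all genes). At 72 h 22 rose and 14 fell (30.3% and 29.5%), and from 24 to 72 h 24 rose and 11 fell (29.3% and 28.7%). Their medians were -0.037, 0.17 and 0.13, beside the medians over all genes given above. UBE2L6, the conjugating enzyme for ISG15, fell by 0.75 at 24 h (adjusted p = 2e-08) and rose by 0.91 ± 0.11 from 24 to 72 h (adjusted p = 7.04e-11). At 0 h it read 13.9 ± 0.984 CPM in 293F and 0.891 ± 0.247 in AC1P (-3.94, adjusted p = 2.91e-25). The guanylate-binding protein genes GBP1 and GBP2 fell by 0.54 and 0.62 at 24 h and rose by 0.84 ± 0.15 and 0.79 ± 0.086 from 24 to 72 h.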

How the data were processed

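Poly(A) RNA of 45 libraries was sequenced from a stranded kit, per the labels' protocols. The deposited values were whole-number counts per Ensembl gene, made by the authors with HISAT2 and featureCounts (Subread) on GRCh38, per the submitters' processing notes. The strand setting and the treatment of reads with several matches were not given in the sources used here, nor were versions and the annotation release. No per-sample column was left unmatched (0). Library totals were 24727028 to 59837051 counts.

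Genes were filtered with edgeR 4.0.16 (R 4.3.3) at a minimum count of 10 and a minimum total of 15, scaled by TMM and fitted with the robust quasi-likelihood model over all 45 libraries and 15 groups. Adjusted p-values are Benjamini-Hochberg over 21242 genes. Contrasts were each time against 0 h, per line and averaged over lines, AC1 lines against 293F at 0 h, and F tests among lines. Symbols came from a table of IDs for 56558 genes, and exon lengths and overlaps from GENCODE 29 models for 57055. A group at 0 was given a floor of 3 counts over the group. The fit was tested on simulated counts. The members and the gene lists were chosen with earlier results of these data known. Values per library were given for up to 3 members per role with the highest mean CPM, and for members at 1 CPM or more that changed at least 2-fold (log2 of 1) and passed the test. ISG15 and IFIT2 fall outside that rule and were added after their values were seen. Of other lists, up to 4 genes at 1 CPM or more with the largest change past the threshold were named, apart from items not reported here. Alternatives were DESeq2 1.42.0, its size factors in edgeR, no filter, a replicate block, each library left out, thinning to 24727028 counts, each line left out of the mean, and fits on part of the libraries.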

Additional observations from a re-analysis of the deposited data

Results flagged for a closer look

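The members below were picked out because the test of the difference in response among the 5 lines passed (edgeR, F test with 4 degrees of freedom, adjusted over 21242 genes). Values are the log2 fold changes of the lowest and highest line. At 24 h IFIT1 ran from -1.11 to 0.29 (adjusted p = 0.00034), IFIT2 from -0.78 to 2.29 (adjusted p = 4.8e-06), IFIT5 from -0.32 to 0.51 (adjusted p = 2.09e-10) and OAS3 from -0.12 to 1.83 (adjusted p = 1.8e-07). Among the same 24 h responses STAT2 ran from -0.79 to -0.0001 (adjusted p = 2.2e-08), IFI6 from -1.23 to -0.29 (adjusted p = 0.000468), IFI27 from -0.79 to 0.12 (adjusted p = 0.0101) and IFI44L from -1.7 to -0.013 (adjusted p = 0.000202). The 24 h change of HERC6 ran from -0.48 to 0.2 (adjusted p = 0.00184), BST2 from -1.79 to -0.62 (adjusted p = 7.01e-05), DTX3L from 0.31 to 0.66 (adjusted p = 0.00413) and SAMD9 from -0.31 to 0.53 (adjusted p = 2.35e-05). Similarly, that of TRIM22 ran from -2.46 to 0.12 (adjusted p = 4.71e-10), IFITM1 from -1.11 to -0.21 (adjusted p = 6.68e-06), IFITM2 from -1.03 to -0.19 (adjusted p = 1.15e-07) and IFITM3 from -0.93 to -0.27 (adjusted p = 0.0188).

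At 72 h IFIT1 ran from -0.82 to 0.093 (adjusted p = 0.033), IFIT2 from -0.24 to 2.06 (adjusted p = 0.00328), ISG15 from 0.6 to 1.39 (adjusted p = 0.015) and IRF7 from 0.27 to 1.03 (adjusted p = 0.0046). Among the 72 h responses IFI6 ran from -0.73 to 0.21 (adjusted p = 0.00191), IFI27 from -0.65 to 1.01 (adjusted p = 2.42e-07), IFI44L from -0.16 to 1.44 (adjusted p = 0.00363) and BST2 from -0.82 to 0.53 (adjusted p = 3.1e-06). The 72 h change of DTX3L ran from 0.19 to 0.85 (adjusted p = 2.75e-07), TRIM22 from 0.21 to 1.29 (adjusted p = 0.0144), IFITM1 from -0.73 to -0.0021 (adjusted p = 0.024) and IFITM2 from -0.66 to 0.15 (adjusted p = 3.48e-07). Similarly, at 72 h that of IFITM3 ran from -0.59 to 0.27 (adjusted p = 0.00312).

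Some of these calls ended when 1 library was left out. At 24 h this held for IFITM3 without AC1.230 24 h replicate 2 (adjusted p = 0.0757), and for IFI27 without any 1 of 3 libraries, with 293F 0 h replicate 1 out giving adjusted p = 0.0925. At 72 h it held for ISG15 without any 1 of 2 libraries, with 293F 72 h replicate 2 out giving adjusted p = 0.09, and for TRIM22 without AC1.230 0 h replicate 3 (adjusted p = 0.0657). It also held at 72 h for IFITM1 without any 1 of 5 libraries, with 293F 0 h replicate 2 out giving adjusted p = 0.0831, and for IFIT1 without any 1 of 11 libraries, with 293F 72 h replicate 2 out giving adjusted p = 0.113. IFIT5 rose in 1 line and fell in 1 other at 24 h, and IFI27 rose in 1 line and fell in 3 at 72 h, as given by line above. SAMD9 rose in 293F and fell in AC1.112 at 24 h, but the fall was lost without AC1.112 0 h replicate 3 (adjusted p = 0.0828). BST2 passed the test upward in 2 lines and downward in 2 at 72 h. Of these, the rise in 293F was lost without 293F 0 h replicate 3 (adjusted p = 0.0539), that in AC1.203 without any 1 of 33 libraries, at most AC1.203 72 h replicate 1 (adjusted p = 0.261), and the fall in AC1.112 without AC1.112 0 h replicate 1 (adjusted p = 0.101).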

How the results depend on the processing

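There were 336 calls of a member in a comparison. Of these, the 30, 16 and 13 calls from the F tests among lines have no direction. Among the other calls no member changed direction under any alternative. DESeq2 kept 335, no filter 331, DESeq2 size factors 333, thinned libraries 313 of 334, the 9 libraries of a line 113 of 118, and the 15 libraries at 0 h 118 of 122. Of 63 calls in the mean over lines, 53 to 59 were kept with 1 line out. Of the 336, 268 held with every single library left out, and 68 were lost in at least 1 such fit. The number of members called in AC1P at 24 h was 6 to 10 with 1 library out, and 10 with all. The other totals of calls stayed within 1.5 times, but several small counts of rises or falls did not: with 1 library out, rises went from 4 to 2 in AC1P at 72 h, from 2 to 1 in AC1.112 and from 4 to 2 in AC1.203 at 24 h, and falls from 3 to 1 in AC1.203 at 72 h. Some also moved on thinned libraries (rises in AC1P and AC1.112 at 24 h, 2 to 1) and on the 9 libraries of a line (rises at 24 h in AC1P, 2 to 1, and AC1.203, 4 to 2, and falls in 293F at 72 h, 1 to 2). Replicate numbers are shared between groups, but in 0 of 19 pairs of groups checked did same-numbered libraries deviate together (correlations -0.067 to 0.052). This check covered only those pairs and cannot tell whether same-numbered libraries shared a culture or batch. With a replicate block 335 of the 336 calls were kept; BST2 in AC1.203 at 72 h was lost (adjusted p = 0.0541 against 0.0488 from edgeR without the block). Depth limits members under 1 CPM, such as IRF9, OASL and EPSTI1, where 1 library can decide a call.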
